A study of Mus musculus with 8 samples.

Results

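Mitosis and G2/M genes are the set described here: 44 genes named by symbol and looked up in a table of 15609 genes. All 44 were found in the table, all are protein coding, and all passed the filter on low counts that left 15112 genes for testing. They were sorted into 9 roles, which organise the account: the proliferation marker Mki67, chromosome structure (6 genes), cyclins and mitotic kinases (7), chromosomal passenger partners (3), the spindle checkpoint (5), the kinetochore (7), spindle motors and microtubule proteins (6), anaphase and cytokinesis proteins (6), and anaphase-promoting ubiquitination (3). The genes were picked for their known roles, and no expression value entered the rule, but earlier results of these data were known.

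A dividing cell copies its DNA in S phase, passes through G2 and separates its chromosomes in M phase. Transcripts of cyclin B, of Aurora and Polo kinases and of spindle and kinetochore proteins are made mainly in G2 and M, so cells that have left the cycle hold little of them. Repression of these genes outside G2 and M is carried out by the DREAM complex, which binds a promoter element called the cell cycle homology region, while NF-Y binds nearby CCAAT boxes. Naive T cells are mostly quiescent, whereas memory T cells divide slowly under IL-15 and IL-7 in the absence of antigen.

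The 8 libraries were bulk RNA-seq of CD8 T cells from the spleen of wild-type C57BL/6 mice, bead-enriched for CD8 and then sorted. Virtual memory (VM) cells, which are CD44hi CD49d- and resemble memory cells without having met foreign antigen, were divided by 2 surface proteins. Cells positive for Ly6C were sorted with Sca-1 (Ly6C+ Sca-1+, 2 libraries) and without it (Ly6C+ Sca-1-, 2 libraries), and cells negative for Ly6C were likewise sorted with it (Ly6C- Sca-1+, 1 library) and without it (Ly6C- Sca-1-, 1 library). True memory cells (CD44hi CD49d+) and naive cells (CD44- CD49d-) had 1 library each. The study asks how these VM subsets differ from each other and from true memory and naive cells. All groups share the genotype and the tissue, and no group was treated. How many mice were used, their age, and whether spleens were pooled are not given, so p-values measure the spread between these libraries, which may be technical. The 2 libraries of a replicated group are called A (no column suffix) and B (with a suffix). The suffix differs between the groups and its meaning is not given, so the letters do not pair libraries across groups.

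Library totals ran from 49993407 to 63815914 counts, so that 1 count was worth 0.0157 to 0.0200 CPM, the unit of level used below, a count scaled to the total of its library. The CD8 T cell label held against its markers: the 7 T cell and CD8 genes summed to between 4145 and 5205 CPM in every library. Markers of other cells differed between libraries. The 9 dendritic cell and MHC class II genes summed to 5211 CPM in true memory cells, against 46.3 to 362 CPM in the other 7 libraries. The 10 monocyte and macrophage genes summed to 184 and 274 CPM in Ly6C+ Sca-1+ VM, 48.2 and 16.7 CPM in Ly6C+ Sca-1- VM, 170 CPM in Ly6C- Sca-1+, 99.3 CPM in Ly6C- Sca-1-, 188 CPM in true memory and 27.0 CPM in naive cells. No marker in the table was at 0, because the smallest count in the table was 1, and markers such as Foxp3, Mzb1, Ncr1 and Klre1 were not analysed here. In bulk libraries, fewer cells in mitosis and less RNA per such cell cannot be told apart.

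Promoters are shown because the cell cycle homology region and the CCAAT box are the elements for which these genes are best known. RefSeq promoters (GRCm38.p6, 250 bases before to 50 bases after the annotated start) were matched by NCBI Gene ID for 36 of the 44 genes. Only the first start listed for each gene was used. The core of the cell cycle homology region was searched as TTTGAA or TTCGAA and the other element as CCAAT, on both strands, so TTCAAA and ATTGG are their reverse complements. In Kntc1 a match of each kind overlaps. The 5 windows below are the 200 bases before the start, written 5′ to 3′ along the gene, with every match in capitals. They come from genes whose values are described in detail and from 5 different roles. Only genes with both elements in that window could be picked, so these windows do not show how often the elements occur. The annotated span of Bub1b begins a few bases inside its window.
Hmgb2, chr8:57511643-57511842, plus strand: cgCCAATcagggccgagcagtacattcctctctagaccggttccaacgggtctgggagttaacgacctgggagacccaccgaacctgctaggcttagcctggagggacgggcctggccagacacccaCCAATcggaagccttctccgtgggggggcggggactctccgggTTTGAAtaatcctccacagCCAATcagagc
Ccnb2, chr9:70421555-70421754, minus strand: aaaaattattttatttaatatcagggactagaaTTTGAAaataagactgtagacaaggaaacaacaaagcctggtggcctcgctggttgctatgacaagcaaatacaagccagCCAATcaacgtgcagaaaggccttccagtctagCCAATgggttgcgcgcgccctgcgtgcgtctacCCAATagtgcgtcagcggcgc
Bub1b, chr2:118598011-118598210, plus strand: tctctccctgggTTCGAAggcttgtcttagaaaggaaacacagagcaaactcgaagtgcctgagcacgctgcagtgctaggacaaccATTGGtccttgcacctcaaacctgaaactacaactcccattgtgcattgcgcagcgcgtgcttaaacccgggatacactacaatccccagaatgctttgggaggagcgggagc
Kif11, chr19:37376182-37376381, plus strand: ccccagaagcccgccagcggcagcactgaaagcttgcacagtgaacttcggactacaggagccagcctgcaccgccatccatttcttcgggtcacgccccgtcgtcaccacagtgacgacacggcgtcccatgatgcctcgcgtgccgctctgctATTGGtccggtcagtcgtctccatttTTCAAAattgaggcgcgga
Cdc20, chr4:118437344-118437543, minus strand: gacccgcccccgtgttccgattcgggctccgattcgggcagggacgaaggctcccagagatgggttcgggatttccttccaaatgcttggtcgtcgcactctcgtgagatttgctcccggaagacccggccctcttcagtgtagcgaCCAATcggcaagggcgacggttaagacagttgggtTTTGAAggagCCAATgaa

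In the full 300-base windows, 29 of the 36 promoters (80.6%) held TTTGAA or TTCGAA, against 19.4% of all 27025 promoters in the RefSeq table. CCAAT was present in 27 of 36 (75%), against 37.9% of all promoters. Both elements together were present in 69.4% of the 36 and in 7.7% of all. A core match within 50 bases of the start was found in 27 of 36, against 5.29% of all promoters. In Cdc20 the core begins 18 bases before the start and lies between a pair of CCAAT boxes. In Kif11 it begins 19 bases before the start, on the other strand. Ccnb2 has another core match 5 bases after the start, outside the window printed above, and 3 CCAAT boxes upstream of it. The 7 promoters without the core letters were those of Birc5, Ccnb1, Cenpe, Mad2l1, Nuf2, Nusap1 and Tacc3. A match of letters is a description of the window and not a mapped binding site.

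Across the 8 libraries the genes followed a common order. For 42 of the 44 the highest CPM was in Ly6C- Sca-1+ VM, a count that was not made over all genes. The exceptions were Smc4, highest in Ly6C- Sca-1- VM, and Ccnb1, highest in true memory cells. Naive cells had the lowest CPM for 37 genes, against 15.1% of all genes tested. For 34 of the 44 the VM groups ran without overlap of their libraries, with Ly6C- Sca-1+ on top, Ly6C- Sca-1- next, then Ly6C+ Sca-1+ followed by Ly6C+ Sca-1-, and naive cells below all of them, an order held by 1.77% of all genes tested.

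**Figure D1:**
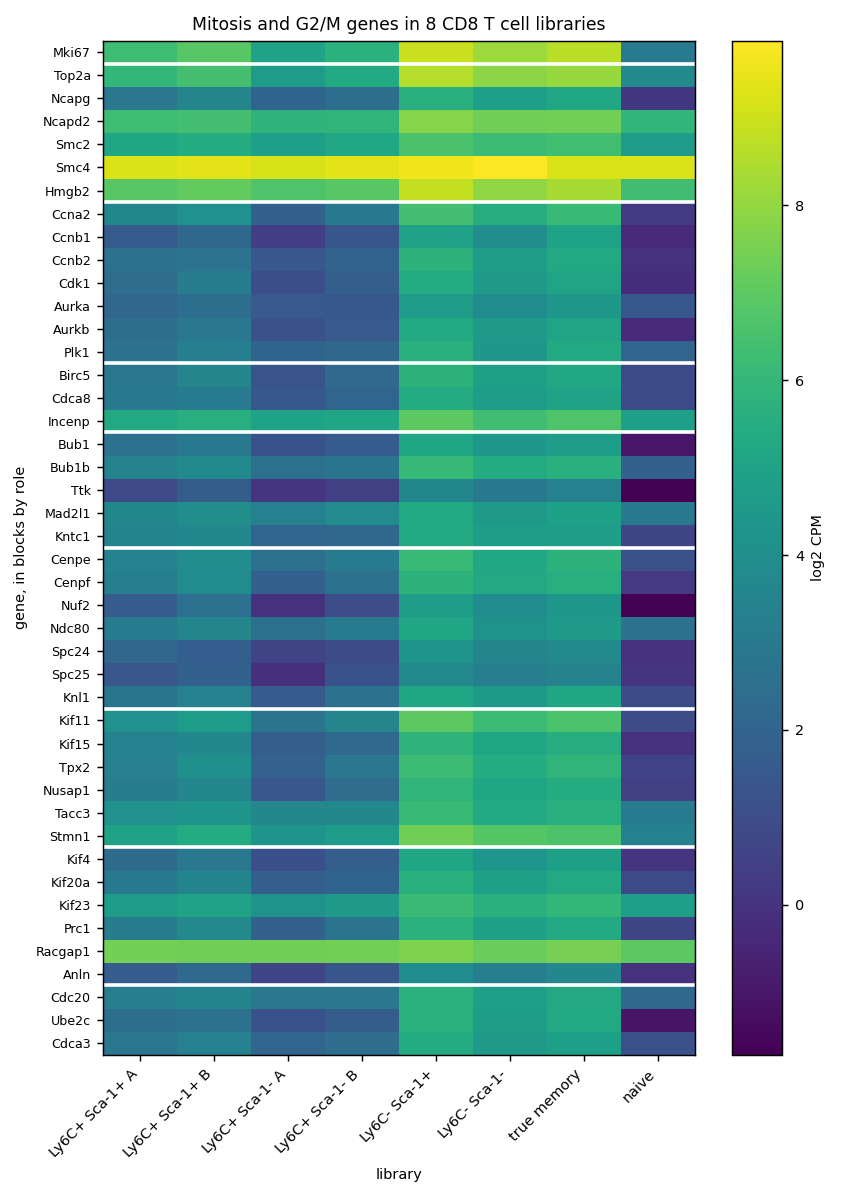
The heat map shows log2 CPM of the 44 genes (rows, in blocks by role from Mki67 at the top to anaphase-promoting ubiquitination at the bottom) in the 8 libraries (columns). The columns for Ly6C- Sca-1+ VM, Ly6C- Sca-1- VM and true memory are bright, the 4 Ly6C+ VM columns are darker and the naive column is darkest for 37 genes, while Smc4 and Racgap1 keep nearly the same colour throughout.

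The summed level of the 44 genes was 1537 and 1794 CPM in Ly6C+ Sca-1+ VM (libraries A and B), 1200 and 1419 CPM in Ly6C+ Sca-1- VM, 4617 CPM in Ly6C- Sca-1+ VM, 3295 CPM in Ly6C- Sca-1- VM, 3569 CPM in true memory and 1056 CPM in naive cells. In naive cells 607 of these 1056 CPM came from Smc4 alone. A sum over the 31 genes that had under 5 CPM in naive cells, a choice that uses the naive level, was 229 and 320 CPM in Ly6C+ Sca-1+ VM, 99.2 and 147 CPM in Ly6C+ Sca-1- VM, 1464 CPM in Ly6C- Sca-1+, 853 CPM in Ly6C- Sca-1-, 1151 CPM in true memory and 48.7 CPM in naive cells. No 2 groups overlapped in that sum. Divided by the summed CPM of 40 S phase genes in the same library, it was 0.145 and 0.191 in Ly6C+ Sca-1+ VM, 0.0709 and 0.103 in Ly6C+ Sca-1- VM, 0.416 in Ly6C- Sca-1+, 0.324 in Ly6C- Sca-1-, 0.434 in true memory and 0.0362 in naive cells. The groups kept the same order in this ratio, except that true memory lay above Ly6C- Sca-1+ VM. The genes were picked for a low naive level, which favours the lowest place of naive cells in both the sum and the ratio.

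**Figure D2:**
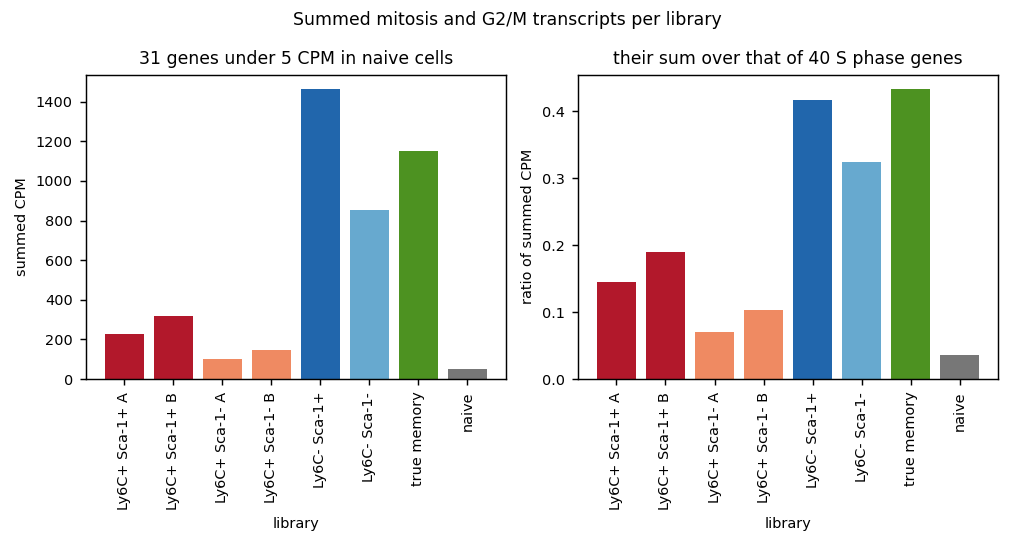
Bars give, for each of the 8 libraries, the summed CPM of the 31 genes under 5 CPM in naive cells (left) and that sum divided by the summed CPM of 40 S phase genes (right), with no error bars because each bar is 1 library. Ly6C- Sca-1+ VM is highest at left (1464 CPM), true memory is highest at right (0.434), and naive cells are lowest in both (48.7 CPM and 0.0362). The choice of genes by their naive level favours a low naive bar.

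Levels were compared between genes only per unit of length, in the authors' TPM (transcripts scaled for length and library total), which was read for the 4 groups with 1 library. The median over these 4 libraries was highest for Smc4 (314 TPM), Hmgb2 (226 TPM) and Stmn1 (214 TPM), and lowest for Anln (4.72 TPM) and Knl1 (5.70 TPM). In Ly6C- Sca-1+ VM the level of Hmgb2 was 334 TPM and that of Stmn1 309 TPM, near the 353 TPM of Smc4. In naive cells Smc4 was at 263 TPM, Racgap1 at 86.1 TPM, Hmgb2 at 62.3 TPM and Stmn1 at 20.3 TPM.

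Ly6C+ against Ly6C- VM gave the largest set of calls within VM cells: 43 of the 44 genes were lower in Ly6C+ cells, and the median log2 fold change was -2.45. A call means a Benjamini-Hochberg adjusted p under 0.05 over all 15112 genes in edgeR's quasi-likelihood test. In the same direction 12.6% of all genes tested were called, and the median over all genes was 0.00. In CPM, both Ly6C- libraries lay above all 4 Ly6C+ libraries for 43 of the 44 genes, against 29% of all genes tested. In the authors' deposited table, which gives Ly6C- over Ly6C+, 43 of the 44 genes were called higher in Ly6C- cells, against 12.3% of its genes. Racgap1 was the gene left out in each of these counts. Only the Ly6C+ groups have a replicate, so each lone Ly6C- library was assumed to vary like them.

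**Figure D3:**
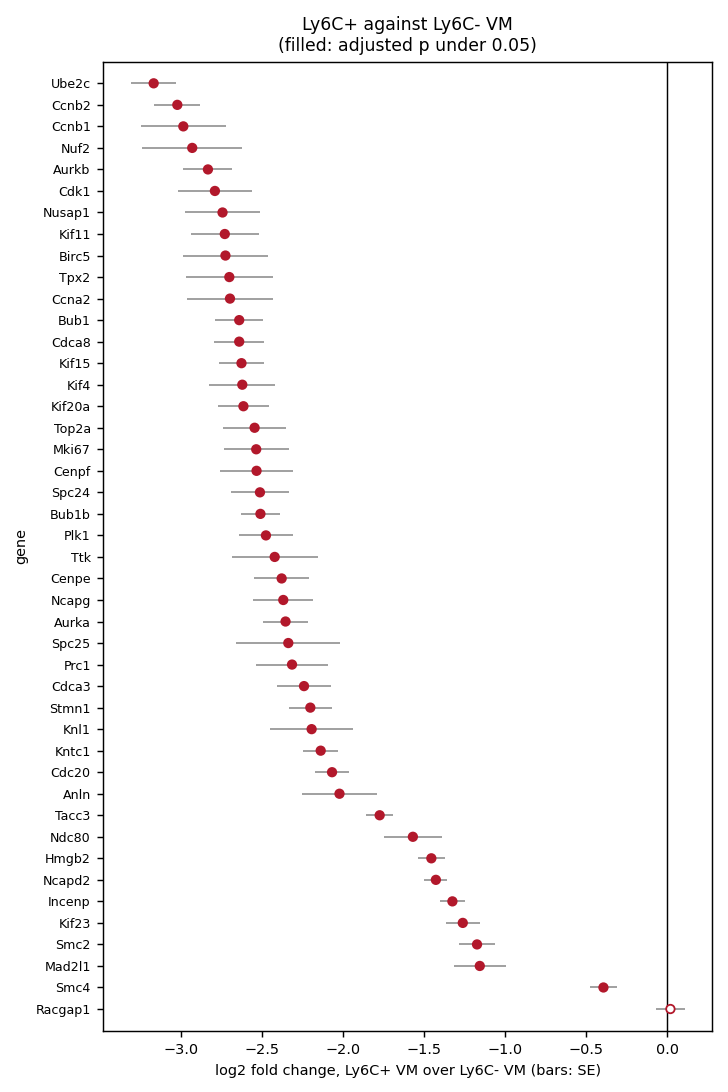
Points give the log2 fold change of Ly6C+ over Ly6C- VM for each of the 44 genes, bars give its standard error (SE) from edgeR, and filled points passed an adjusted p of 0.05. All but Racgap1 (0.02) lie below 0, from Smc4 at -0.39 to Ube2c at -3.17.

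Mki67 (Gene ID 17345, chromosome 7, 135689784 to 135716450), which encodes the Ki-67 protein that coats mitotic chromosomes, stood at 79.0 and 117 CPM in the Ly6C+ Sca-1+ VM libraries, 31.8 and 51.6 CPM in Ly6C+ Sca-1- VM, 501 CPM in Ly6C- Sca-1+, 291 CPM in Ly6C- Sca-1-, 407 CPM in true memory and 8.02 CPM in naive cells. Ly6C- VM and true memory lay far above Ly6C+ VM. Both Ly6C+ Sca-1+ libraries were above both Ly6C+ Sca-1- libraries, as for 15% of all genes tested. In Ly6C+ against Ly6C- VM the log2 fold change was -2.54 ± 0.20 (SE; edgeR adjusted p = 0.00104).

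Chromosome structure genes encode topoisomerase II alpha, condensin subunits and an HMG-box protein, and all 6 were lower in Ly6C+ than in Ly6C- VM, with a median log2 fold change of -1.44. Smc4 (Gene ID 70099, chromosome 3, 69004738 to 69034623), a core ATPase of condensin, stood at 623 and 670 CPM in the Ly6C+ Sca-1+ VM libraries, 589 and 676 CPM in Ly6C+ Sca-1- VM, 796 CPM in Ly6C- Sca-1+, 944 CPM in Ly6C- Sca-1-, 599 CPM in true memory and 607 CPM in naive cells. The Ly6C- libraries were highest, and the other 6 overlapped each other. Its log2 fold change of -0.39 ± 0.08 (edgeR adjusted p = 0.0219) was the smallest of the 43 called. Without either Ly6C+ Sca-1+ library, or without either Ly6C- library, it was no longer called, with adjusted p between 0.0584 and 0.189 in edgeR.

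Hmgb2 (Gene ID 97165, chromosome 8, 57511843 to 57515999), a chromatin protein that bends DNA, stood at 117 and 136 CPM in the Ly6C+ Sca-1+ VM libraries, 104 and 116 CPM in Ly6C+ Sca-1- VM, 447 CPM in Ly6C- Sca-1+, 249.4 CPM in Ly6C- Sca-1-, 330 CPM in true memory and 80.7 CPM in naive cells. Here the 4 Ly6C+ libraries lay close together, with A of Sca-1+ just above B of Sca-1-. The log2 fold change in Ly6C+ against Ly6C- VM was -1.46 ± 0.08 (edgeR adjusted p = 0.000483). Top2a, which untangles sister DNA, had the largest fold change of this role at -2.55 ± 0.19, and the condensin genes Ncapg, Ncapd2 and Smc2 had log2 fold changes of -2.37, -1.43 and -1.17.

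Cyclins and mitotic kinases drive entry into and passage through mitosis, and all 7 were lower in Ly6C+ VM, with a median of -2.79, the lowest median of any role with more than 1 gene. Ccna2 (Gene ID 12428, chromosome 3, 36564865 to 36573038), cyclin A2 of S and G2, stood at 12.4 and 17.9 CPM in the Ly6C+ Sca-1+ VM libraries, 3.69 and 7.98 CPM in Ly6C+ Sca-1- VM, 85.4 CPM in Ly6C- Sca-1+, 45.8 CPM in Ly6C- Sca-1-, 71.8 CPM in true memory and 1.20 CPM in naive cells. Ccnb2 (Gene ID 12442, chromosome 9, 70407689 to 70421554), cyclin B2, which activates the mitotic kinase Cdk1, stood at 6.17 and 6.56 CPM in the Ly6C+ Sca-1+ VM libraries, 2.70 and 3.92 CPM in Ly6C+ Sca-1- VM, 54.2 CPM in Ly6C- Sca-1+, 27.3 CPM in Ly6C- Sca-1-, 40.3 CPM in true memory and 1.00 CPM in naive cells. Both genes had the Ly6C+ Sca-1+ libraries above the Ly6C+ Sca-1- libraries without overlap, as did 15% of all genes tested. Their log2 fold changes in Ly6C+ against Ly6C- VM were -2.70 ± 0.26 for Ccna2 and -3.02 ± 0.14 for Ccnb2 (edgeR adjusted p = 0.00188 and 0.000371). The other 5, Ccnb1, Cdk1, Aurkb, Plk1 and Aurka, ran from -2.99 (Ccnb1) to -2.36 (Aurka).

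Chromosomal passenger partners hold Aurora B at the centromere and later at the midzone. Birc5 (Gene ID 11799, chromosome 11, 117849237 to 117855743), survivin, stood at 7.23 and 12 CPM in the Ly6C+ Sca-1+ VM libraries, 2.46 and 4.78 CPM in Ly6C+ Sca-1- VM, 54.4 CPM in Ly6C- Sca-1+, 29.4 CPM in Ly6C- Sca-1-, 36.9 CPM in true memory and 1.83 CPM in naive cells. Incenp (Gene ID 16319, chromosome 19, 9872295 to 9899489), the scaffold of the complex, stood at 40.7 and 47.1 CPM in the Ly6C+ Sca-1+ VM libraries, 32.7 and 35.4 CPM in Ly6C+ Sca-1- VM, 123 CPM in Ly6C- Sca-1+, 81.5 CPM in Ly6C- Sca-1-, 102 CPM in true memory and 28.4 CPM in naive cells. Both kept the same order of groups, over a narrower range for Incenp. Their log2 fold changes in Ly6C+ against Ly6C- VM were -2.73 ± 0.26 for Birc5 and -1.33 ± 0.08 for Incenp (edgeR adjusted p = 0.00181 and 0.000483), and that of Cdca8, borealin, was -2.64 ± 0.15.

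Spindle checkpoint genes delay anaphase until every kinetochore is attached, and all 5 were lower in Ly6C+ VM, with a median of -2.42. Bub1b (Gene ID 12236, chromosome 2, 118598202 to 118641592), BubR1, stood at 11.1 and 14.4 CPM in the Ly6C+ Sca-1+ VM libraries, 5.94 and 7.04 CPM in Ly6C+ Sca-1- VM, 66.4 CPM in Ly6C- Sca-1+, 42.9 CPM in Ly6C- Sca-1-, 49.9 CPM in true memory and 3.68 CPM in naive cells. Mad2l1 (Gene ID 56150, chromosome 6, 66535221 to 66541107), the Cdc20 inhibitor Mad2, stood at 12.3 and 16.2 CPM in the Ly6C+ Sca-1+ VM libraries, 10.3 and 14.7 CPM in Ly6C+ Sca-1- VM, 40.2 CPM in Ly6C- Sca-1+, 23.3 CPM in Ly6C- Sca-1-, 29.9 CPM in true memory and 7.77 CPM in naive cells. The Sca-1 groups within Ly6C+ cells were apart for Bub1b and overlapped for Mad2l1. Over all genes tested, 15% had Sca-1+ above Sca-1- there without overlap. The log2 fold changes in Ly6C+ against Ly6C- VM were -2.51 ± 0.12 for Bub1b and -1.16 ± 0.16 for Mad2l1 (edgeR adjusted p = 0.000371 and 0.0059). Without the Ly6C- Sca-1+ library, Mad2l1 was no longer called (log2 fold change -0.824, edgeR adjusted p = 0.0948).

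Kinetochore genes link chromosomes to spindle microtubules, and all 7 were lower in Ly6C+ VM, from -2.93 (Nuf2) to -1.57 (Ndc80). Cenpe (Gene ID 229841, chromosome 3, 135212563 to 135273540), a kinetochore motor, stood at 10.7 and 15.7 CPM in the Ly6C+ Sca-1+ VM libraries, 5.67 and 8.001 CPM in Ly6C+ Sca-1- VM, 70.4 CPM in Ly6C- Sca-1+, 36.7 CPM in Ly6C- Sca-1-, 55.2 CPM in true memory and 2.26 CPM in naive cells. Cenpf (Gene ID 108000, chromosome 1, 189640606 to 189688107), a large coiled-coil protein of the outer kinetochore, stood at 9.79 and 15.3 CPM in the Ly6C+ Sca-1+ VM libraries, 3.57 and 6.12 CPM in Ly6C+ Sca-1- VM, 55.2 CPM in Ly6C- Sca-1+, 39.0 CPM in Ly6C- Sca-1-, 49.2 CPM in true memory and 1.15 CPM in naive cells. Nuf2 (Gene ID 66977, chromosome 1, 169497934 to 169531464), a subunit of the microtubule-binding Ndc80 complex, stood at 3.10 and 5.73 CPM in the Ly6C+ Sca-1+ VM libraries, 0.959 and 2.04 CPM in Ly6C+ Sca-1- VM, 26.8 CPM in Ly6C- Sca-1+, 15.1 CPM in Ly6C- Sca-1-, 21.7 CPM in true memory and 0.305 CPM in naive cells. All 3 had the Ly6C+ Sca-1+ libraries above the Ly6C+ Sca-1- libraries without overlap, as did 15% of all genes tested. Their log2 fold changes in Ly6C+ against Ly6C- VM were -2.38 ± 0.17 for Cenpe, -2.54 ± 0.22 for Cenpf and -2.93 ± 0.31 for Nuf2 (edgeR adjusted p = 0.000795, 0.00143 and 0.0024).

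Spindle motors and microtubule proteins were lower in Ly6C+ VM for all 6 genes, with a median of -2.67. Kif11 (Gene ID 16551, chromosome 19, 37376382 to 37421863), the kinesin Eg5 that pushes the spindle poles apart, stood at 17.7 and 25.7 CPM in the Ly6C+ Sca-1+ VM libraries, 6.78 and 11.8 CPM in Ly6C+ Sca-1- VM, 125 CPM in Ly6C- Sca-1+, 74.9 CPM in Ly6C- Sca-1-, 95.7 CPM in true memory and 1.90 CPM in naive cells. Stmn1 (Gene ID 16765, chromosome 4, 134468320 to 134473843), the microtubule-destabilising stathmin, stood at 31.4 and 43.1 CPM in the Ly6C+ Sca-1+ VM libraries, 19.5 and 25.4 CPM in Ly6C+ Sca-1- VM, 163 CPM in Ly6C- Sca-1+, 115 CPM in Ly6C- Sca-1-, 101 CPM in true memory and 10.4 CPM in naive cells. Stmn1 is 1 of only 3 genes of the 44, with Smc4 and Kntc1, for which Ly6C- Sca-1- VM lay above true memory. The log2 fold changes in Ly6C+ against Ly6C- VM were -2.73 ± 0.21 for Kif11 and -2.20 ± 0.13 for Stmn1 (edgeR adjusted p = 0.000979 and 0.000514). Kif15, Tpx2, Nusap1 and Tacc3 lay between -2.75 (Nusap1) and -1.78 (Tacc3).

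Anaphase and cytokinesis genes build the central spindle and the cleavage furrow, and 5 of 6 were lower in Ly6C+ VM. Racgap1 (Gene ID 26934, chromosome 15, 99620496 to 99651656), a centralspindlin subunit, stood at 179 and 164 CPM in the Ly6C+ Sca-1+ VM libraries, 164 and 171 CPM in Ly6C+ Sca-1- VM, 199 CPM in Ly6C- Sca-1+, 149.9 CPM in Ly6C- Sca-1-, 182 CPM in true memory and 123 CPM in naive cells. The Ly6C- libraries fell on either side of all 4 Ly6C+ libraries, and its log2 fold change of 0.02 ± 0.09 had an edgeR adjusted p of 0.896. The sign of that value turned with scaling: it was -0.03 without a scaling factor. Kif23 (Gene ID 71819, chromosome 9, 61917277 to 61946810), the motor that forms centralspindlin with Racgap1, stood at 25.7 and 31.6 CPM in the Ly6C+ Sca-1+ VM libraries, 19.2 and 23.5 CPM in Ly6C+ Sca-1- VM, 73.7 CPM in Ly6C- Sca-1+, 50.7 CPM in Ly6C- Sca-1-, 62.2 CPM in true memory and 28.5 CPM in naive cells. It was higher in naive cells than in 3 of the 4 Ly6C+ libraries, and its log2 fold change in Ly6C+ against Ly6C- VM was -1.26 ± 0.11 (edgeR adjusted p = 0.00122).

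Anaphase-promoting ubiquitination genes help to mark mitotic regulators for destruction, and all 3 were lower in Ly6C+ VM. Ube2c (Gene ID 68612, chromosome 2, 164769929 to 164772902), the ubiquitin-conjugating enzyme of the anaphase-promoting complex, stood at 5.53 and 6.30 CPM in the Ly6C+ Sca-1+ VM libraries, 2.30 and 3.26 CPM in Ly6C+ Sca-1- VM, 52.1 CPM in Ly6C- Sca-1+, 27.1 CPM in Ly6C- Sca-1-, 40.6 CPM in true memory and 0.466 CPM in naive cells. Its log2 fold change of -3.17 ± 0.14 (edgeR adjusted p = 0.000371) was the largest in size of the 44 genes. Exons of Tnnc2 overlap 22.8% of the exonic bases of Ube2c on the opposite strand, and whether counting used strand is not given. In all, 11 of the 44 genes share exonic bases with a gene on the opposite strand, and Ccnb1, Ccnb2 and Kif4 have annotated pseudogene copies, so their counts carry that uncertainty. Cdc20 (Gene ID 107995, chromosome 4, 118432901 to 118437343), the activator of that complex, stood at 9.61 and 11.3 CPM in the Ly6C+ Sca-1+ VM libraries, 7.53 and 7.32 CPM in Ly6C+ Sca-1- VM, 51.0 CPM in Ly6C- Sca-1+, 28.7 CPM in Ly6C- Sca-1-, 38.9 CPM in true memory and 4.52 CPM in naive cells. Ube2c and Cdc20 had the Ly6C+ Sca-1+ libraries above the Ly6C+ Sca-1- libraries without overlap, as did 15% of all genes tested. The log2 fold change of Cdc20 in Ly6C+ against Ly6C- VM was -2.07 ± 0.11 (edgeR adjusted p = 0.000409).

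**Figure D4:**
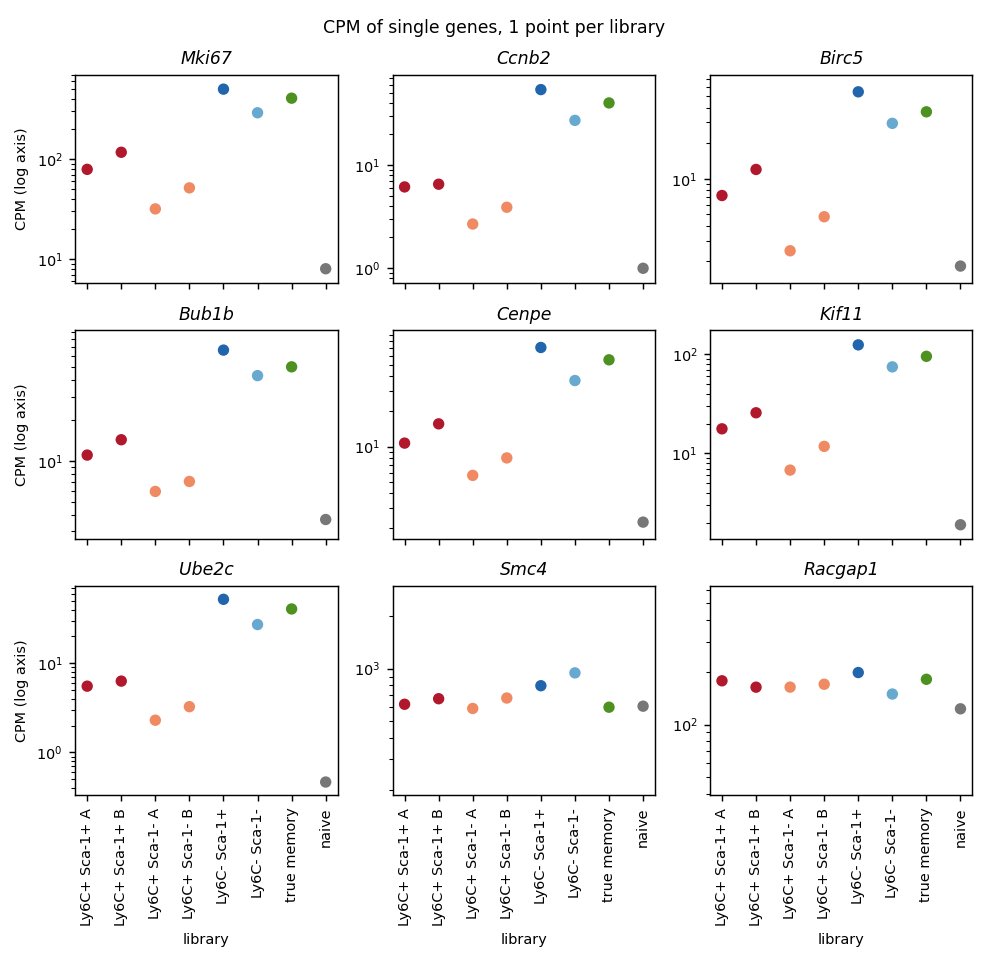
Each panel shows CPM on a log axis in the 8 libraries, 1 point per library, for Mki67, Ccnb2, Birc5, Bub1b, Cenpe, Kif11, Ube2c, Smc4 and Racgap1. In 7 panels the order is shared, with Ly6C- Sca-1+ VM at the top and naive cells at the bottom, while Smc4 (589 to 944 CPM) and Racgap1 (123 to 199 CPM) stay in a narrow band.

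Markers of other cells also differed between Ly6C+ and Ly6C- VM. In edgeR, 4 of 4 plasma cell, 3 of 3 CD4 T cell, 7 of 9 dendritic cell and MHC class II, 4 of 5 erythroid, 3 of 5 B cell and 1 of 10 monocyte and macrophage genes were lower in Ly6C+ VM, as were 2 of 7 CD8 T cell genes, while 1 dendritic cell and MHC class II gene was higher. The only NK cell gene tested was not called. Summed CPM of the CD4 T cell genes was 8.38 and 9.28 in Ly6C+ Sca-1+ VM, 6.22 and 3.76 in Ly6C+ Sca-1- VM, 55.6 in Ly6C- Sca-1+ and 14.3 in Ly6C- Sca-1- VM. Summed plasma cell genes ran from 42.4 to 54.8 CPM in the 4 Ly6C+ libraries, against 144 CPM in Ly6C- Sca-1+ and 98.3 CPM in Ly6C- Sca-1- VM. Most of each sum came from Xbp1 and Irf4. In Ly6C- Sca-1+ VM these were at 40.3 and 78.0 CPM, beside 19.6 CPM for Jchain and 5.72 CPM for Sdc1. In Ly6C- Sca-1- VM the 4 genes, in that order, were at 40.9, 50.7, 2.19 and 4.44 CPM. The part of these cells in the mitotic values was not tested.

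Against naive cells, 29 of the 44 genes were higher in Ly6C+ VM and none was lower in edgeR, with a median log2 fold change of 1.71. Over all genes tested, 3.54% were called higher. Ube2c (3.14 ± 0.28), Bub1 (3.13 ± 0.29), Nuf2 (3.09 ± 0.63) and Mki67 (3.02 ± 0.34) had the largest fold changes. Kif23 was the only gene with a negative value, at -0.17 ± 0.14 (edgeR adjusted p = 0.583). Birc5, at 1.71 ± 0.44, did not pass (edgeR adjusted p = 0.0883). Limma-voom called 16 of the 44. Nuf2 passed narrowly in edgeR (adjusted p = 0.0454) and did not pass with limma-voom (0.10), without a scaling factor (0.0626) or without a filter on low counts (0.0607). In edgeR, 1 dendritic cell or MHC class II gene of 9, 1 of 3 CD4 T cell genes and 0 of 10 monocyte and macrophage genes were called higher in Ly6C+ VM than in naive cells. Of those 10, 9 had positive values, 7 had an unadjusted p under 0.05, the median log2 fold change was 2.20, and the smallest edgeR adjusted p was 0.0543. Most dendritic cell and MHC class II genes went the other way, with 8 of 9 negative and a median of -1.12. All 5 B cell genes were negative too (median -1.49), and no gene of these lists was called lower. The part of these cells in the result was not tested.

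In Ly6C- VM against naive cells, 42 of the 44 genes were higher, with a median of 4.33, while 5.74% of all genes tested were called higher in edgeR. Ube2c again had the largest value, 6.31 ± 0.31. Racgap1 (0.48 ± 0.13) and Smc4 (0.50 ± 0.12) did not pass, with edgeR adjusted p of 0.079 and 0.0607. Among markers of other cells, 4 of 5 erythroid, 3 of 3 CD4 T cell, 2 of 4 plasma cell and 2 of 10 monocyte and macrophage genes were also higher in Ly6C- VM than in naive cells, and their part in the result was not tested. The naive group is 1 library and serves in each of these comparisons, so their values are not independent of each other.

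True memory against naive cells compared 1 library with 1 library, with no replicate and no test. Of the 44 genes, 42 were at least 2-fold higher in true memory cells, against 10.3% of all genes tested, and the median log2 difference was 4.2. The largest was 6.34 for Ube2c, and the genes under 2-fold were Racgap1 (0.57) and Smc4 (-0.02). The same libraries differed in dendritic cell and MHC class II genes, with all 9 at least 2-fold higher in true memory and sums of 5211 CPM in true memory and 127 CPM in naive cells. All 10 monocyte and macrophage and 5 of 5 erythroid genes were also at least 2-fold higher in true memory. So were 3 of 3 CD4 T cell, 3 of 4 plasma cell and 1 of 5 B cell genes and the only NK cell gene. Xcr1 and Clec9a, markers of the dendritic cells that take up dead cells, were at 68.5 and 75.1 CPM in true memory, against 1.09 and 1.02 CPM in naive cells. The part of such cells in the true memory values was not tested.

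Ly6C+ VM against true memory gave 42 of 44 genes lower in Ly6C+ VM and none higher in edgeR, with a median of -2.45, while 8.6% of all genes tested were called lower. Ccnb1, cyclin B1, had the largest value at -3.51 ± 0.30 (edgeR adjusted p = 0.00103). Smc4 (0.13 ± 0.11) and Racgap1 (-0.07 ± 0.11) did not pass (edgeR adjusted p = 0.547 and 0.761). In edgeR all 9 dendritic cell and MHC class II genes and 4 of 4 plasma cell genes were likewise lower in Ly6C+ VM. So were 3 of 5 erythroid, 2 of 3 CD4 T cell, 1 of 5 B cell and 1 of 10 monocyte and macrophage genes. The only NK cell gene tested, Klrb1c, was lower too, at -2.26 (edgeR adjusted p = 0.0301). The part of these cells in the result was not tested.

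In Ly6C- VM against true memory, none of the 44 genes was called in edgeR, while 2.3% of all genes tested were called in either direction. The median was -0.03 and the values ran from -0.52 ± 0.36 (Ccnb1) to 0.52 ± 0.12 (Smc4). Smc4 was the only gene with an unadjusted p under 0.05 (edgeR adjusted p = 0.131). DESeq2 called 1 gene, and 1 was called by edgeR without Ly6C+ Sca-1- library A. Standard errors of the 44 values ran from 0.10 (Ncapd2) to 0.46 (Spc25), so small differences were not detectable for the genes with the larger errors. The mean of the Ly6C- groups also covers a split: Ly6C- Sca-1+ VM lay above true memory for 43 of the 44 genes and Ly6C- Sca-1- VM for 3. These counts were not made over all genes tested, so they have no share to be set against. The median was 0.385 with Ly6C- Sca-1+ alone and -0.401 with Ly6C- Sca-1- alone, with no gene called in either. In edgeR, Ly6C- VM was lower than true memory for all 9 dendritic cell and MHC class II genes, with a median of -4.45. It was also lower for 1 of 10 monocyte and macrophage genes. The part of such cells was not tested.

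Within Ly6C+ VM, all 44 genes had a positive log2 fold change in Sca-1+ over Sca-1- cells, against 7314 of all 15112 genes tested. The median of the 44 was 1.01, but none of them passed adjustment over all genes in edgeR. The smallest adjusted p was 0.108, for Kntc1, and 0.00662% of all genes tested, which is 1 gene, were called in either direction. At an unadjusted p under 0.05, 38 of the 44 were higher, against 3.58% of all genes tested. DESeq2 called 24 of the 44 higher and limma-voom called 0. The authors' deposited table had 24 of them higher at an adjusted p under 0.05, against 1.52% of its genes. The count also depended on which libraries entered: edgeR called 24 without Ly6C+ Sca-1- library A, 30 without Ly6C+ Sca-1- library B and 3 without Ly6C+ Sca-1+ library A. In CPM, both Sca-1+ libraries lay above both Sca-1- libraries for 39 of the 44 genes, against 15% of all genes tested. The genes with overlap were Smc2, Smc4, Mad2l1, Ndc80 and Racgap1.

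Nuf2 had the largest log2 fold change of Ly6C+ Sca-1+ over Ly6C+ Sca-1- VM, 1.56 ± 0.40 (edgeR adjusted p = 0.385). Kif15, a spindle kinesin, was at 1.53 ± 0.18 (edgeR adjusted p = 0.109), and Kntc1, a checkpoint protein that recruits dynein to kinetochores, was at 1.503 ± 0.14. Mki67 was at 1.23 ± 0.24 (edgeR adjusted p = 0.219). At the low end were Smc4 (0.02 ± 0.10), Racgap1 (0.02 ± 0.10), Mad2l1 (0.18 ± 0.19) and Hmgb2 (0.19 ± 0.10), and the first 3 of these turned negative when a single library was left out. By role, the median was lowest for chromosome structure (0.38) and highest for spindle motors and microtubule proteins (1.24).

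Library B lay above library A of the same group for most of the genes. On the log2 scale, B was above A for 41 of the 44 genes in Ly6C+ Sca-1+ VM (median difference 0.39) and for 39 in Ly6C+ Sca-1- VM (median 0.40), against 49.9% and 47.7% of all genes tested. The letters are not a pairing given by the labels. Between libraries of the same letter, Sca-1+ was above Sca-1- for all 44 genes in A (median 1.17) and for 42 in B (median 0.97). The shares over all genes tested were 48.9% in A and 50.8% in B. The summed level of the 31 genes low in naive cells was 229 CPM in Ly6C+ Sca-1+ A and 147 CPM in Ly6C+ Sca-1- B. The Sca-1 groups thus stayed apart across the letters.

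In Ly6C- VM, with 1 library against 1 and no test, Sca-1+ cells had the higher level for 43 of the 44 genes. Over all genes tested that share was 53.8%, and the median log2 difference of the 44 was 0.80. At least 2-fold higher were 3 genes, against 2.28% of all genes tested: Plk1 (1.26), Ccnb2 (1.05) and Ccnb1 (1.04), all of the cyclin and kinase role. Ube2c and Cenpe, of other roles, fell just short of 2-fold at 0.996 each. Without a scaling factor 1 gene passed 2-fold. Smc4 alone was lower, at -0.19. All 5 erythroid genes, 3 of 3 CD4 T cell genes and 3 of 10 monocyte and macrophage genes were also at least 2-fold higher in Ly6C- Sca-1+ cells. The part of these cells was not tested.

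**Figure D5:**
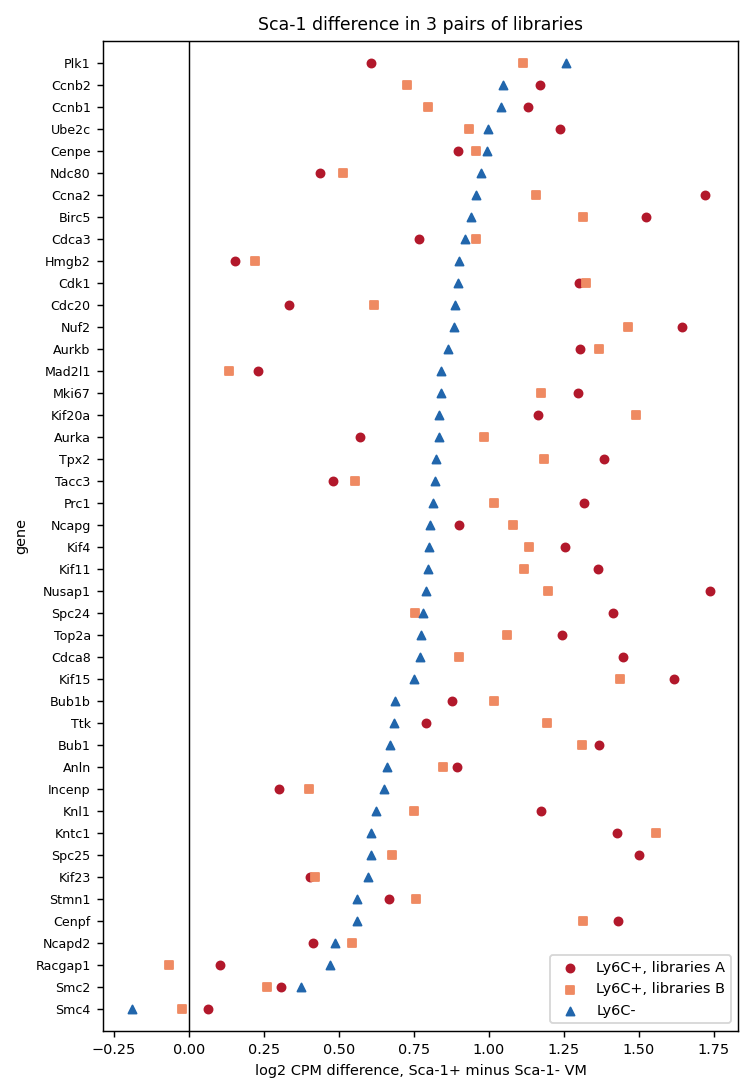
Points give the log2 CPM difference of Sca-1+ minus Sca-1- VM for each of the 44 genes, between the A libraries and the B libraries of Ly6C+ cells and between the lone libraries of Ly6C- cells. Most points lie between 0 and 1.74, and those at or below 0 are Smc4 in Ly6C- (-0.19) and in B, and Racgap1 in B (-0.06).

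The Sca-1 difference in Ly6C- VM minus that in Ly6C+ VM was called for none of the 44 genes and for 0% of all genes tested in edgeR, and for none of the 44 in DESeq2. Its median over the 44 was -0.28, and it ran from -0.492 (without Ly6C+ Sca-1- library B) to -0.023 (without Ly6C+ Sca-1- library A) when 1 library was left out, with -0.437 without Ly6C+ Sca-1+ library A and -0.0437 without Ly6C+ Sca-1+ library B. At an unadjusted p under 0.05 there were 4 genes: Kntc1 (-0.89 ± 0.22) and Kif15 (-0.78 ± 0.29) below 0, and Hmgb2 (0.71 ± 0.17) and Racgap1 (0.45 ± 0.18) above it. Hmgb2 was thus at 0.90 in Ly6C- and 0.19 in Ly6C+ cells, with an edgeR adjusted p of 0.945 for the difference. In the authors' deposited comparison of Sca-1+ with Sca-1- over all VM groups, 0 of the 44 genes and 7 genes of the whole table were called.

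Monocyte and macrophage genes also differed with Sca-1 in Ly6C+ VM. All 10 had higher values in Sca-1+ cells at an unadjusted p under 0.05, with a median log2 fold change of 3.10, and none passed adjustment in edgeR (smallest adjusted p = 0.112). Their sums were 184 and 274 CPM in Ly6C+ Sca-1+ VM and 48.2 and 16.7 CPM in Ly6C+ Sca-1- VM. Erythroid genes summed to 19.2 and 15.5 CPM in Ly6C+ Sca-1+ VM and to 5.51 and 3.54 CPM in Ly6C+ Sca-1- VM. B cell genes summed to 15.1 and 16.6 CPM in Ly6C+ Sca-1+ VM and to 13.4 and 15.3 CPM in Ly6C+ Sca-1- VM. The part of such cells in the mitotic values was not tested.

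Other genes of the cell cycle were read from lists of their own. Of 77 further mitosis genes, 69 were lower and none higher in Ly6C+ against Ly6C- VM in edgeR, with a median log2 fold change of -2.01. Examples were the centromere chaperone gene Hjurp (-0.34 ± 0.07), the phosphatase gene Cdc25b (-0.93 ± 0.12), the lamin gene Lmnb1 (-1.55 ± 0.07) and the microtubule polymerase gene Ckap5 (-0.52 ± 0.07). Of 40 S phase genes, 37 were lower and none higher, with a median of -1.08. Among them Dnmt1, which maintains DNA methylation, was at -0.60 ± 0.08, the sliding clamp Pcna at -0.65 ± 0.08, and the replicative helicase subunits Mcm6 and Mcm4 at -0.87 ± 0.09 and -0.69 ± 0.08.

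Of 16 G1 and E2F genes, 12 were lower in Ly6C+ VM, with a median of -0.78, such as Cdk4 (-0.42 ± 0.07), Tfdp1 (-0.68 ± 0.08), E2f2 (-1.73 ± 0.08) and Cdk2 (-1.498 ± 0.13). Of the 24 core genes of the anaphase-promoting complex and cohesin 2 were lower, Rad21 (-0.41 ± 0.09) and Fzr1 (-0.68 ± 0.11), and the median was -0.09. Of 24 quiescence and inhibitor genes, Tsc1, a brake on mTOR, was higher (0.34 ± 0.07), and 3 were lower: Rb1 (-0.67 ± 0.08), Cdkn2c (-1.74 ± 0.15) and Cdkn1a (-2.08 ± 0.30). The median of that list was -0.01. The counts in these last 2 lists are not above the 12.6% of all genes called lower.

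Against true memory, Ly6C- VM had 0 of 77 further mitosis genes, 0 of 40 S phase genes and 0 of 24 core subunits called in edgeR, with medians of -0.03, 0.18 and -0.0048. In the other lists, 1 of 16 G1 and E2F genes was lower in Ly6C- VM, Ccnd1, which encodes cyclin D1 (-4.33 ± 0.33, edgeR adjusted p = 0.00408), and 1 of 24 quiescence and inhibitor genes, Cdkn1a (-2.23 ± 0.38, edgeR adjusted p = 0.0453). With Sca-1 in Ly6C+ VM, 0 of the 77 and 0 of the 40 were called, with medians of 0.67 and 0.26, against 1.01 for the 44 genes and -0.01 for all genes tested. At an unadjusted p under 0.05, 42 of the 77 further mitosis genes, 16 of the 40 S phase genes and 0 of the 24 core subunits were higher in Ly6C+ Sca-1+ cells.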

How the data were processed

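Raw counts per gene, in 1 deposited table of 15609 genes by NCBI Gene ID, were used for every comparison. TPM, computed by the authors, compared levels between genes in the 4 groups with 1 library. From the deposited comparisons came the authors' signed fold changes, a score never between -1 and 1, and their adjusted p-values. A further 20 FPKM, log2 and TPM columns were not used. Per the labels' protocols, libraries were stranded and paired-end with 101 bp reads, FastQC 0.11.7 served for quality control and Trimmomatic 0.38 for trimming. Genome mm10 as well as edgeR and R 3.6.0 are listed in the submitters' notes on processing. No source used here gives the aligner or the counter. The smallest count in the table is 1, so a gene with 0 in any library is not analysed here.

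Counts were filtered with filterByExpr and scaled by TMM, and all 8 libraries entered 1 edgeR 4.0.16 quasi-likelihood fit (R 4.3.3) with 1 coefficient per group. That left 2 residual degrees of freedom, a prior of 4.14 and a common biological coefficient of variation of 0.151. Where 1 library met 1, log2 CPM differences were taken (prior count 2), untested. CPM levels used library totals. Alternatives were DESeq2 1.42.0, limma-voom (limma 3.58.1), other scaling and filters, and leaving out each library. The fit was tested on simulated data. The labels' replicate numbers are not carried by the columns. Coordinates and promoters are RefSeq GRCm38.p6, and exon overlaps are from GENCODE M21. Of 36 promoters, 30 had bases 21 to 50 after the start in a GENCODE transcript of the gene. Members and lists were chosen with earlier results of these data known. Values in every library are given for Mki67, the 1 or 2 genes of each role with the highest mean CPM, and the genes with the largest, smallest or opposite differences. Up to 4 genes of each other list are those called with the highest mean CPM. Other genes named as exceptions to a count or as ends of a range were chosen after their values were seen.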

Additional observations from a re-analysis of the deposited data

How the results depend on the processing

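The counts of called genes in Ly6C+ against Ly6C- VM (43 of 44), Ly6C- VM against naive (42), Ly6C+ VM against true memory (42) and true memory against naive (42) stayed within 1.5 times under every alternative run. In Ly6C+ Sca-1+ against Ly6C+ Sca-1- VM the count of 0 became 24 with DESeq2 and 40 with a replicate block by column suffix, and ran from 0 to 30 when 1 library was left out. The same setting of suffix as a block gave 3 for Ly6C- VM against true memory and 4 for the Sca-1 difference in Ly6C- against Ly6C+ VM, in place of 0 in both. The columns carry no replicate number, and the block only separates columns with a suffix from those without. The A minus B differences of the Ly6C+ groups correlated at r = 0.354 over 15112 genes. That is a hint from the data and not a pairing by design. Ly6C- VM against true memory had 1 call with DESeq2 and 0 to 1 when 1 library was left out. Ly6C+ VM against naive had 16 in place of 29 with limma-voom. Ly6C- Sca-1+ against Ly6C- Sca-1- VM had 1 gene past 2-fold in place of 3 with no scaling factor. The summed CPM of true memory over naive was 6.61-fold without Smc4 and 3.38-fold with it, an alternative chosen after seeing the data. Signs turned for 3 genes that were not called there. In Ly6C+ Sca-1+ against Ly6C+ Sca-1- VM, leaving out 1 library gave -0.0386 to 0.0814 for Smc4 and -0.0209 to 0.405 for Mad2l1, both lowest without Ly6C+ Sca-1- A, and -0.0773 to 0.118 for Racgap1, lowest without Ly6C+ Sca-1+ A. In Ly6C+ against Ly6C- VM Racgap1 was -0.0288 with no scaling factor and -0.192 to 0.243 when 1 library was left out, with -0.0307 without Ly6C+ Sca-1+ A. The cause was not tested. Of 1286 alternatives of 18 named genes, 1195 kept direction and side of the threshold, 71 gained a call, 14 lost it and 6 turned sign. The filter of 1 CPM in every library left 34 of the 44 genes for testing. Over all genes, calls in Ly6C+ against Ly6C- VM were 3240, with 6601 under the suffix block and 1126 (without Ly6C- Sca-1+) to 4381 (without Ly6C+ Sca-1- A) when 1 library was left out. In Ly6C+ Sca-1+ against Ly6C+ Sca-1- VM they were 1, with 223 by DESeq2, 467 under the block and up to 307 (without Ly6C+ Sca-1- A) when 1 library was left out. Under the block and by DESeq2 they were 3442 and 1338 in place of 857 for Ly6C+ VM against naive, 5274 and 1857 in place of 1172 for Ly6C- VM against naive, and 1867 and 542 in place of 348 for Ly6C- VM against true memory, where the filter of 1 CPM gave 110. For Ly6C+ VM against true memory the block gave 4644 in place of 1594, and for the Sca-1 difference between Ly6C- and Ly6C+ VM it gave 364, and DESeq2 39, in place of 0. Leaving out 1 library gave 710 to 1760 for Ly6C+ VM against naive, 550 to 2690 for Ly6C- VM against naive, 1253 to 2538 for Ly6C+ VM against true memory, 154 to 771 for Ly6C- VM against true memory and 0 to 169 for the Sca-1 difference, so the shares of all genes called move with the libraries used. With 1 library in 4 of the 6 groups, differences among those groups rest on the spread of the Ly6C+ libraries.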
